A study of Mus musculus with 18 samples.

Results

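The fatty acid elongases Elovl1, Elovl2, Elovl3, Elovl5 and Elovl7 and the fatty acid desaturases Fads1, Fads2 and Scd2 were followed in mouse liver RNA. They were taken by gene symbol from the count table of the study, and all 8 genes were found among its 35441 genes. All 8 passed the minimum of more than 100 reads summed over the livers, as did 14533 genes in all. Elovl7 passed it through the untreated Lipa-/- livers, since the other livers together held few reads of it.

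The study asked how liver gene expression changed when mice without lysosomal acid lipase (LAL), the enzyme that frees cholesterol and fatty acids from lipids delivered to the lysosome, received a vector with the human gene. Liver poly(A) RNA was sequenced from 18 male mice, 3 in each of 6 groups. Lipa-/- mice had lost exon 4 of Lipa in all tissues, through a Cre recombinase under the CMV promoter, and had been backcrossed on the C57/BL6N background. WT mice were littermate controls without treatment. The rAAV8-treated Lipa-/- mice carried the same deletion and were injected into the tail vein, at 10 to 12 weeks of age, with an adeno-associated vector holding the human LIPA cDNA with a 3xHA tag under the hAAT promoter, which is active mainly in hepatocytes. The LAL they make can be secreted and taken up by other cells. Livers were taken at 12-weeks and at 34-weeks after injection, which the sample labels give as 3 and 8 months. According to the methods of the study, untreated Lipa-/- mice that reached predefined endpoints were killed before 34-weeks, so the Lipa-/- livers of 34-weeks may not all be of one age, although the labels give one. Each mouse was 1 biological replicate. Lipa-/- mouse 5 of 12-weeks carried another study code than the 8 other livers of that time, so the comparisons of 12-weeks without it are those within 1 code.

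Long-chain fatty acids are made from palmitate by cycles of elongation in the endoplasmic reticulum, each adding a unit of 2 carbons from malonyl-CoA. An ELOVL protein performs the condensation that opens each cycle and sets which chains are accepted, and a reductase, a dehydratase and a second reductase complete it. Desaturases place double bonds with electrons passed on by cytochrome b5. ELOVL1, ELOVL3 and ELOVL7 act mainly on saturated and monounsaturated chains, ELOVL2 and ELOVL5 on polyunsaturated chains, FADS2 and FADS1 are the delta-6 and delta-5 desaturases that alternate with them, and SCD enzymes turn saturated chains into monounsaturated ones. In liver several of these genes are known targets of SREBP-1, LXR or PPAR alpha, and Elovl3 is known for higher expression in males and for a daily rhythm.

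In GRCm39, the build used in the study, the members lie on 4 chromosomes. Elovl1 spans 118284346 to 118290150 of chromosome 4 (plus strand), Elovl5 77818113 to 77891802 of chromosome 9 (plus), Elovl2 41335857 to 41374112 of chromosome 13 (minus) and Elovl7 108350937 to 108423639 of chromosome 13 (plus). The other 4 lie on chromosome 19. Fads2 (10038130 to 10079203, minus) and Fads1 (10160167 to 10174241, plus) are neighbours that point away from each other, 80963 bp apart, and Scd2 (44281613 to 44295303, plus) lies 87590 bp from its paralog Scd1. Elovl3 spans 46119917 to 46124133 (plus). Elovl1 overlaps Cdc20 and Elovl3 overlaps Pitx3 on the opposite strand, Elovl5, Elovl7, Fads1 and Fads2 overlap noncoding genes or pseudogenes there, and the library type was left to automatic detection in Salmon. The type it found is not given in the sources used here, so it is not known whether reads of these stretches were assigned by strand.

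Upstream sequences are shown for Elovl7, which was higher in Lipa-/- livers, and for Fads2, whose level in treated livers differed between the time points. Each holds the 250 bases before the start of the canonical GENCODE vM39 transcript in GRCm39, read in the direction of transcription from 5′ to 3′. Capitals mark the GC box GGGCGG and the CCAAT box, on either strand.
Elovl7, chr13:108350687-108350936, plus strand: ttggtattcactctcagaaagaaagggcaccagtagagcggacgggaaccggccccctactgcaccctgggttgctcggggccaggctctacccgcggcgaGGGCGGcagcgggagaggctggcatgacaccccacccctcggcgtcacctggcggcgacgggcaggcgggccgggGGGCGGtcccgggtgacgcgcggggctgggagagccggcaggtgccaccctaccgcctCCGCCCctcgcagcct
Fads2, chr19:10079204-10079453, minus strand: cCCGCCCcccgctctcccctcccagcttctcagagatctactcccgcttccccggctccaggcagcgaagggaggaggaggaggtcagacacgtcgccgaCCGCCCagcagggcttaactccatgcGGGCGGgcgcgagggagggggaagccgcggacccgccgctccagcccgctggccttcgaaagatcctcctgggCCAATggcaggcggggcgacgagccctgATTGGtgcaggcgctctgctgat
Over the window from 250 bases before to 50 bases after the start, the GC box stood in both genes and in 42.5% of the windows of 21734 genes. The CCAAT box stood in Fads2 but not in Elovl7, and in 39.9% of all windows. The E box CACGTG, which 7.82% of the windows held, the sterol regulatory element core TCACNCCAC, which 1.33% held, and the TATA box TATAAA, which 13.2% held, were found in neither. All motifs were searched on both strands, no letters of one overlapped another in these sequences, and a match describes letters only. The Elovl7 sequence had a GC content of 73.2% and that of Fads2 70.4%, against a median of 53.2% over all genes.

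Reads assigned to genes numbered 17527848 to 25833134 per liver, and expression is given as CPM, the reads of a gene relative to the total of the liver, scaled by TMM factors of 0.587 to 1.69 from edgeR. Lipa was 9.55-fold lower at 12-weeks and 16.1-fold lower at 34-weeks in Lipa-/- than in WT livers and hLIPA was read in every treated liver, while WT livers of 34-weeks held 24 hLIPA reads in all. Treated mouse 10 of 12-weeks had the lowest total and the lowest factor, and lay apart from the other livers on the second principal component. TMM factors of untreated Lipa-/- livers were high (1.17 to 1.69) and those of treated livers of 12-weeks low (0.587 to 0.759). With total counts in place of TMM factors, the median over all genes shifted on the log2 scale. In Lipa-/- against WT livers the shift was 0.47 at 12-weeks and 0.63 at 34-weeks. In treated against WT livers it was -0.40 at 12-weeks and 0.085 at 34-weeks. In treated against untreated livers it was -0.87 at 12-weeks and -0.54 at 34-weeks. A gene was called at a log2 fold change beyond 1 in either direction with an adjusted p under 0.05 in edgeR's quasi-likelihood test over all 14533 genes.

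**Figure D1:**
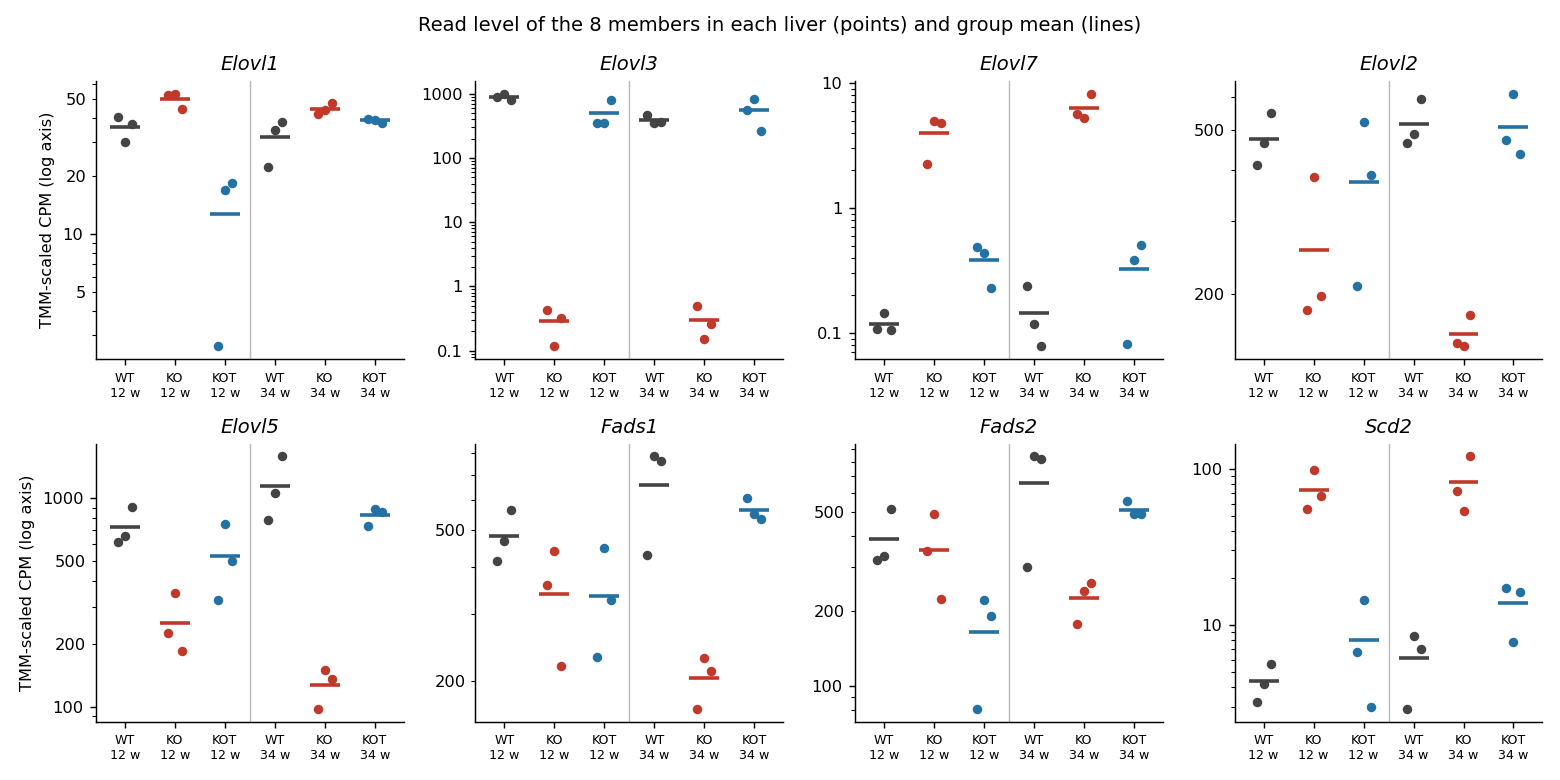
Level of each member in each liver, in CPM scaled by TMM factors on a log axis, with a panel per gene; points are livers and lines the means of 3. KO stands for Lipa-/- and KOT for rAAV8-treated Lipa-/- livers, with 12 and 34 weeks on either side of the grey line, and the Lipa-/- livers lie lowest for Elovl3 (0.117 to 0.505 CPM) and highest for Elovl7 and Scd2 at both times.

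Between Lipa-/- and WT livers, 4 of the 8 members were called at 12-weeks and 7 at 34-weeks. Elovl3 and Elovl5 were lower and Elovl7 and Scd2 higher at both times, and Elovl2, Fads1 and Fads2 were lower at 34-weeks. Elovl7 is in both counts, although it passed the minimum of reads only through the Lipa-/- livers. Calls made up 29.3% of all genes at 12-weeks, with 20.2% higher and 9.06% lower. At 34-weeks they made up 36.3%, with 20.5% higher and 15.7% lower. The median log2 fold change of the members was -0.32 at 12-weeks and -1.61 at 34-weeks, against 0.02 and -0.03 over all genes. With scaling by total counts, 6 members were called at 34-weeks (2 higher, 4 lower) since Fads2 missed the threshold, and over all genes the higher share of the calls rose from 56.6% to 81.8%.

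Between treated and WT livers, 2 members, Elovl1 and Fads2, were called at 12-weeks, both lower, and 0 at 34-weeks. Calls made up 25.5% of all genes at 12-weeks, with 13.6% higher and 12% lower. At 34-weeks they made up 0.22%, with 0.131% higher and 0.0895% lower. DESeq2 also called 0 members at 34-weeks, and 1 member, Scd2, had an unadjusted p under 0.05 in edgeR. The count of 12-weeks depended on the scaling and on single livers. It was 6, all lower, from limma on log2 TPM (Elovl2, Elovl3, Elovl5 and Fads1 besides), 3 with total counts, 0 without WT mouse 3, 1 without treated mouse 10 and 3 without treated mouse 12.

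Against untreated Lipa-/- livers, treated livers differed in 6 members at 12-weeks and in 7 at 34-weeks. At 12-weeks 2 were higher (Elovl3 and Elovl5) and 4 lower (Elovl1, Elovl7, Fads2 and Scd2), and at 34-weeks 5 were higher (Elovl2, Elovl3, Elovl5, Fads1 and Fads2) and 2 lower (Elovl7 and Scd2). Calls made up 41.5% of all genes at 12-weeks, with 16.2% higher and 25.3% lower. At 34-weeks they made up 31.5%, with 12.8% higher and 18.6% lower. These comparisons share their untreated livers with those against WT livers. Their counts, too, include Elovl7, which passed the minimum of reads only through the untreated livers. Without Lipa-/- mouse 5, thus within a study code, 4 members were called at 12-weeks (1 higher, 3 lower), and the 4 calls of Lipa-/- against WT livers were the same as with it. With total counts, the split was 1 higher and 4 lower at 12-weeks, and 3 higher and 2 lower at 34-weeks.

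**Figure D2:**
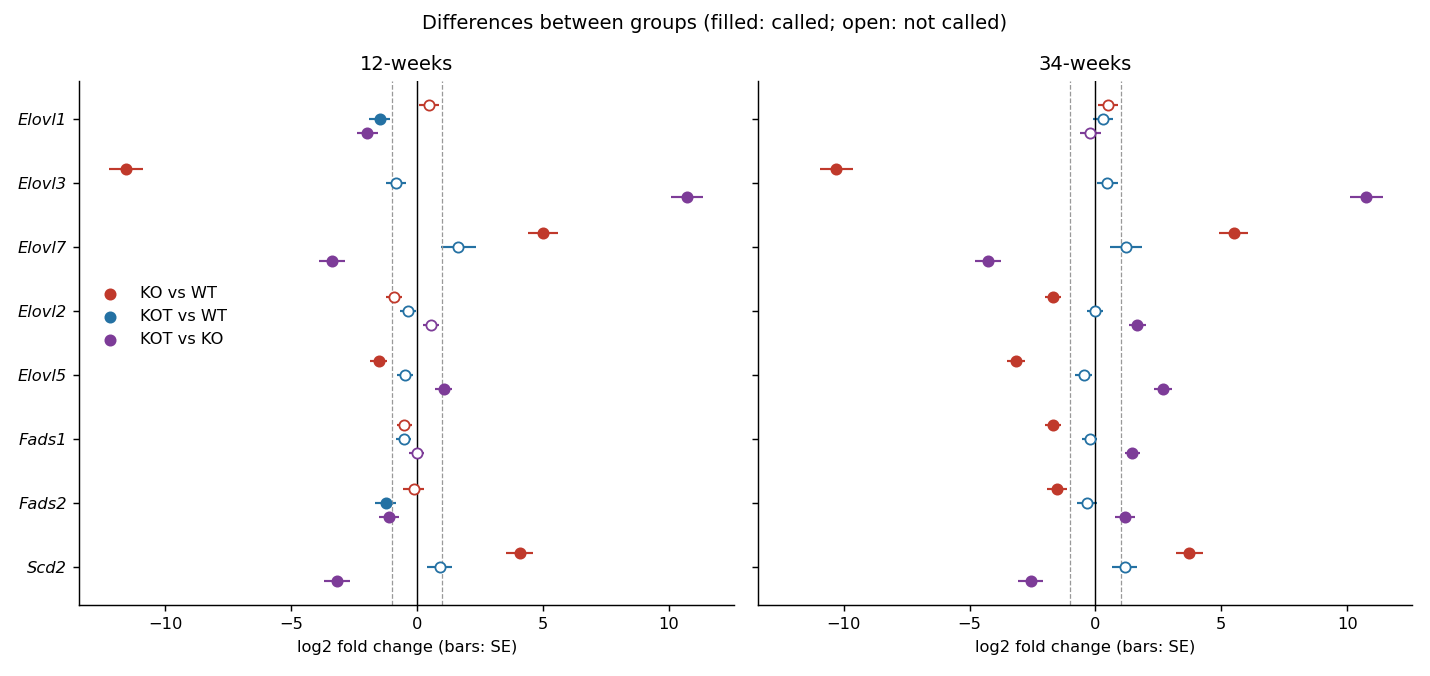
Log2 fold changes of the members (bars show the SE) between Lipa-/- (KO), rAAV8-treated Lipa-/- (KOT) and WT livers at 12-weeks (left) and 34-weeks (right), with filled points for calls and dashed lines at 1 and -1. At 34-weeks all 8 points of KOT against WT are open, while those of Elovl3 in KO against WT stand at -11.56 and -10.28.

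Elovl3, which elongates saturated and monounsaturated chains, had the largest difference. In WT livers of 12-weeks it stood at 882, 1005 and 789 CPM, and in Lipa-/- livers of 12-weeks at 0.117, 0.323 and 0.426 CPM, which were 3, 8 and 12 reads. Treated livers of 12-weeks held 346, 357 and 798 CPM. Every untreated Lipa-/- liver was thus below every WT and treated liver, and treated mouse 12 lay within the WT range. At 34-weeks the level was 473, 349 and 368 CPM in WT, 0.505, 0.155 and 0.257 CPM in Lipa-/- and 832, 265 and 556 CPM in treated livers, and treated and WT livers overlapped.

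As the Lipa-/- livers of a time point held only 23 and 27 Elovl3 reads, its fold was also taken from pooled reads. It was 3064-fold lower than in WT livers at 12-weeks (95% interval 2042 to 4834) and 1217-fold lower at 34-weeks (836 to 1846), intervals that cover counting error only. The edgeR log2 fold changes were -11.56 ± 0.67 (SE) and -10.28 ± 0.64 (adjusted p = 1.43e-08 and 1.95e-08). Treated livers were higher than untreated ones by 10.72 ± 0.65 and 10.76 ± 0.65 on the log2 scale (adjusted p = 6.83e-08 and 5.63e-08). Against WT livers the treated livers differed by -0.83 ± 0.41 at 12-weeks (adjusted p = 0.12, 0.006 to 0.298 over the alternatives) and by 0.47 ± 0.41 at 34-weeks (adjusted p = 0.965). The former passed the threshold on log2(TPM + 0.1) (-1.62) and log2(TPM + 1) (-1.61), with total counts (-1.25) and without treated mouse 12 (-1.42).

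Elovl7, an elongase of saturated long chains, was barely read in WT livers. It had 2, 3 and 2 reads in the WT livers of 12-weeks and 4, 3 and 2 in those of 34-weeks. In Lipa-/- livers it had 129, 118 and 63 reads at 12-weeks (5.01, 4.77 and 2.24 CPM) and 178, 135 and 224 reads at 34-weeks (5.61, 5.22 and 8.23 CPM). All 6 Lipa-/- livers lay above the other 12. Treated livers had 5, 8 and 3 reads at 12-weeks and 7, 13 and 2 at 34-weeks.

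From pooled reads, Elovl7 was 33.0-fold higher in Lipa-/- than in WT livers at 12-weeks (95% counting interval 15.8 to 82.8) and 47.8-fold higher at 34-weeks (25.0 to 105). The edgeR log2 fold changes were 5.01 ± 0.59 and 5.49 ± 0.58 (adjusted p = 4.89e-06 and 1.18e-06). Elovl7 passed the minimum of reads only through the Lipa-/- livers, so its p-values are no separate support for a higher level there. In treated livers it was lower than in untreated ones by -3.37 ± 0.53 and -4.28 ± 0.52 on the log2 scale (adjusted p = 8.54e-05 and 7.33e-06). Against WT livers, the treated livers were at 1.64 ± 0.69 and 1.21 ± 0.64 (adjusted p = 0.0655 and 0.899), and did not pass the threshold. On the log2(TPM + 1) scale the size was much smaller (1.85 for Lipa-/- against WT livers at 34-weeks), since values far below 1 TPM are hidden by the pseudocount.

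Elovl1, an elongase of saturated very long chains found in most tissues, did not differ between Lipa-/- and WT livers beyond the threshold. It was at 40.4, 30.1 and 37.2 CPM in WT livers of 12-weeks and at 53.5, 44.5 and 52.8 CPM in Lipa-/- livers. The log2 fold change was 0.49 ± 0.41 at 12-weeks (adjusted p = 0.372) and 0.49 ± 0.41 at 34-weeks (95% interval -0.30 to 1.29, adjusted p = 0.339). The groups did not overlap at either time, and with total counts the value was 0.95 and 1.09 without a call. On log2(TPM + 1) it was called at 34-weeks (1.12, limma adjusted p = 0.0414).

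Treated livers of 12-weeks had less Elovl1, at 2.62, 17.0 and 18.5 CPM, all below the WT and untreated livers. The log2 fold change was -1.49 ± 0.42 against WT (adjusted p = 0.0141, 0.00049 to 0.0566 over the alternatives) and -1.97 ± 0.42 against untreated livers (adjusted p = 0.00115). The lowest value was that of mouse 10, with 27 reads. Without this mouse the difference from WT livers was -1.09 and still called, and without WT mouse 3 it was -1.46 and not called. At 34-weeks treated livers were at 39.0, 37.9 and 39.8 CPM, overlapping the WT livers (22.4, 34.6 and 38.2 CPM), and did not pass the threshold (0.29 ± 0.41, adjusted p = 0.975).

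Elovl5, which elongates polyunsaturated chains of 18 and 20 carbons, was lower in Lipa-/- livers at both times. WT livers held 619, 659 and 911 CPM at 12-weeks and 784, 1056 and 1585 CPM at 34-weeks. Lipa-/- livers held 350, 185 and 224 CPM at 12-weeks and 97.3, 150 and 136 CPM at 34-weeks, all below the WT livers. It was 2.88-fold lower at 12-weeks (log2 fold change -1.53 ± 0.34, adjusted p = 0.00189) and 8.95-fold lower at 34-weeks (-3.16 ± 0.36, adjusted p = 2.93e-06). Treated livers held 326, 749 and 502 CPM at 12-weeks and 888, 854 and 733 CPM at 34-weeks, which overlapped the WT livers at both times.

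The higher level of Elovl5 in treated than in untreated livers was 1.05 ± 0.34 on the log2 scale at 12-weeks (adjusted p = 0.0145) and 2.69 ± 0.35 at 34-weeks (adjusted p = 1.7e-05). The call of 12-weeks was lost with upper quartile factors (0.97) and total counts (0.24), turned to -0.12 on log2 TPM, and was lost without treated mouse 11 (0.71), Lipa-/- mouse 9 (0.87) or Lipa-/- mouse 5 (0.97). The call of 34-weeks was kept in each of these alternatives that applied to it. Against WT livers the treated livers were at -0.47 ± 0.33 at both times (adjusted p = 0.267 and 0.965), and at 12-weeks Elovl5 was called lower on log2(TPM + 0.1) (-1.22, limma adjusted p = 0.0272).

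Elovl2, which carries polyunsaturated chains on to 24 carbons, was 3.23-fold lower in Lipa-/- livers at 34-weeks (-1.69 ± 0.32, adjusted p = 0.000417). It ranged from 149 to 178 CPM in Lipa-/- livers and from 466 to 595 CPM in WT livers. At 12-weeks the difference was -0.90 ± 0.32 with an adjusted p of 0.0339, under the fold threshold, and without Lipa-/- mouse 8, the highest of its group at 385 CPM, it was -1.32 and called. Treated livers exceeded untreated ones by 1.67 ± 0.32 at 34-weeks (adjusted p = 0.000589), with 438 to 613 CPM. At 12-weeks this difference was 0.55 ± 0.32 (adjusted p = 0.152) and turned to -0.26 with total counts and to -0.60 on log2(TPM + 0.1).

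Fads2 and Fads1, the delta-6 and delta-5 desaturases, were lower in Lipa-/- livers at 34-weeks. Fads1 was at 430, 782 and 762 CPM in WT and at 169, 231 and 212 CPM in Lipa-/- livers, a 3.22-fold lower level (-1.69 ± 0.31, adjusted p = 0.000245). Fads2 was at 302, 841 and 818 CPM in WT and at 178, 242 and 259 CPM in Lipa-/- livers, a 2.89-fold lower level (-1.53 ± 0.41, adjusted p = 0.00549). WT mouse 1 was the lowest WT liver for both genes, and neither gene overlapped between the groups. Both calls rested on the scaling, since Fads2 was at -0.98 with total counts and at -0.73 on log2(TPM + 0.1), and Fads1 at -0.97 on the latter scale. At 12-weeks neither gene passed the threshold (Fads1 -0.51 ± 0.30, adjusted p = 0.194, and Fads2 -0.14 ± 0.40, adjusted p = 0.814), and Fads2 turned to 0.31 with total counts.

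In treated livers of 12-weeks Fads2 was at 80.5, 221 and 191 CPM, below the WT livers (320, 333 and 515 CPM) and the untreated livers (490, 223 and 349 CPM). The log2 fold change was -1.24 ± 0.41 against WT livers (adjusted p = 0.0265) and -1.11 ± 0.41 against untreated livers (adjusted p = 0.0298). Without mouse 10, the lowest liver, these were -0.99 and -0.81 and neither was called, and the former was -0.99 without WT mouse 3. The latter was also not called without Lipa-/- mouse 8 (-0.80) or mouse 5 (-1.12). Fads1 did not pass the threshold against WT livers (-0.52 ± 0.30, adjusted p = 0.174) or untreated livers (-0.02 ± 0.30, adjusted p = 0.967) by this test. On log2(TPM + 0.1) it was called lower against both, at -1.20 (limma adjusted p = 0.0245) and -1.12 (adjusted p = 0.018).

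At 34-weeks, treated livers held 551, 535 and 607 CPM of Fads1 and 494, 491 and 554 CPM of Fads2, within the range of the WT livers. They exceeded the untreated livers by 1.47 ± 0.30 (adjusted p = 0.000956) and 1.18 ± 0.41 (adjusted p = 0.0278). The call of Fads2 was lost in 4 of the 6 fits that left out 1 liver (values 1.03 to 1.29 over the 6, lost without treated mouse 11 or 9 and without Lipa-/- mouse 4 or 5), with total counts (0.66) and on log2 TPM. The call of Fads1 was lost with total counts (0.94) and on both log2 TPM scales (0.94 and 0.93, limma adjusted p = 0.0624 and 0.0586).

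Scd2, a delta-9 desaturase known mainly from brain, skin and embryonic liver, was higher in every Lipa-/- liver than in any other liver. Lipa-/- livers held 97.7, 66.8 and 55.2 CPM at 12-weeks and 71.9, 53.9 and 120 CPM at 34-weeks, while WT livers held 3.22, 4.21 and 5.60 CPM and 2.89, 8.51 and 6.97 CPM. It was 16.8-fold higher at 12-weeks (4.07 ± 0.55, adjusted p = 2.1e-05) and 13.3-fold higher at 34-weeks (3.73 ± 0.53, adjusted p = 2.78e-05). Treated livers held 6.70, 14.3 and 2.99 CPM and 7.76, 16.1 and 17.3 CPM. They were below the untreated livers by -3.17 ± 0.52 and -2.58 ± 0.50 (adjusted p = 0.000144 and 0.000623), and at 0.90 ± 0.51 and 1.16 ± 0.49 against WT livers (adjusted p = 0.168 and 0.777). Reads of Scd2 and its paralog Scd1 could be divided between them by the counting in ways that are uncertain.

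Several lists of markers of other cell types were higher in Lipa-/- livers, as Elovl7 and Scd2 were. Of 10 macrophage markers, 9 were called higher in Lipa-/- than in WT livers at 12-weeks and 8 at 34-weeks, and their summed level was 131 to 318 CPM in WT and 3447 to 6643 CPM in Lipa-/- livers at 12-weeks, and 225 to 449 and 2560 to 5128 CPM at 34-weeks. In treated livers the sum was 867 to 2583 CPM at 12-weeks and 337 to 843 CPM at 34-weeks. All 6 markers of lipid-associated macrophages were called higher at both times (119 to 189 CPM in WT and 3296 to 6873 CPM in Lipa-/- livers at 12-weeks, 93.8 to 149 and 4727 to 5813 CPM at 34-weeks), and were at 353 to 783 and 216 to 395 CPM in treated livers. No marker of these lists was at 0 in a whole group. Stellate cell markers were called higher for 5 of 8 and 6 of 8, with 1 lower at each time (sums of 121 to 218 against 762 to 1241 CPM, and 196 to 240 against 1309 to 2502 CPM). In treated livers their sum was 364 to 967 CPM at 12-weeks, overlapping the untreated livers, with a median log2 fold change of -0.18 against these, and 201 to 269 CPM at 34-weeks. Cholangiocyte markers were called higher for 3 of 5 and 5 of 5 (29.4 to 58.7 against 453 to 2233 CPM, and 40.6 to 53.0 against 1018 to 1793 CPM), and were at 54.2 to 64.7 and 50.4 to 93.0 CPM in treated livers. Spp1 belongs to both this list and that of lipid-associated macrophages, so their counts and sums cannot be read apart. Neutrophil markers were called higher for 7 of 7 and 5 of 7, from sums of 0.628 to 2.30 and 1.01 to 5.37 CPM in WT livers, where Ly6g and Camp had no reads at both times and Mpo and Ngp none at 12-weeks, to 123 to 1601 and 104 to 272 CPM in Lipa-/- livers. Markers with few or no reads in WT livers, such as Ly6g and Camp, passed the minimum of reads through the other livers. Their calls are thus no separate support for a higher level in Lipa-/- livers. In treated livers the sum of the neutrophil markers was 5.60 to 66.6 CPM at 12-weeks and 1.64, 2.97 and 788 CPM in the 3 livers of 34-weeks. Only 1 treated liver of 34-weeks was thus high, and the others lay below every untreated liver. At that time 0 of 7 were called lower than in untreated livers (median log2 fold change 0.96). Resident Kupffer cell markers summed to 85.2 to 202 CPM in WT and 64.8 to 310 CPM in Lipa-/- livers at 12-weeks, and to 140 to 287 and 47.9 to 208 CPM at 34-weeks. The Kupffer cell sum in treated livers was 337 to 502 CPM at 12-weeks and 127 to 384 CPM at 34-weeks. At 12-weeks it lay above every WT and untreated liver. Other sums were lower in Lipa-/- than in WT livers at 12-weeks. Endothelial markers summed to 113 to 158 CPM in WT and 65.4 to 73.7 CPM in Lipa-/- livers at 12-weeks, and to 145 to 157 and 81.1 to 130 CPM at 34-weeks. Erythroid markers summed to 190 to 408 and 147 to 186 CPM at 12-weeks, and overlapped at 34-weeks.

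Of 9 tested hepatocyte markers, 4 were called lower at 12-weeks and 6 at 34-weeks, with summed levels of 76860 to 95316 CPM in WT and 42380 to 62449 CPM in Lipa-/- livers at 12-weeks, and 65221 to 90321 and 24024 to 51243 CPM at 34-weeks. In treated livers the sum was 76557 to 124215 CPM and 61937 to 88109 CPM. The part of these marker changes in the levels of the members was not tested, and in whole liver fewer cells of a type and less RNA per cell cannot be told apart.

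Between the time points, 0 members were called in WT livers (1 at an unadjusted p under 0.05 in edgeR, Elovl3, and 0 by DESeq2) and 0 in Lipa-/- livers (3 unadjusted, 0 by DESeq2). Over all genes 0.323% were called in WT livers (0.22% higher, 0.103% lower) and 0.495% in Lipa-/- livers (0.0344% higher, 0.461% lower). In treated livers Elovl1 (1.60 ± 0.42, adjusted p = 0.00649) and Fads2 (1.64 ± 0.41, adjusted p = 0.00495) were called higher at 34-weeks, where 32% of all genes were called (17.5% higher, 14.5% lower). The count in treated livers was 5 with total counts, 7 from limma on log2 TPM and 4 without treated mouse 11 of 12-weeks. The time points were run under different study codes (2 codes at 12-weeks), and a change with time and a difference between codes cannot be told apart.

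The difference from WT livers was itself compared between the time points. For Lipa-/- livers 0 members and 0.0619% of all genes were called, while 3 members (Elovl5, Fads1 and Fads2) had an unadjusted p under 0.05 and DESeq2 called 0. Elovl5 had the largest of these values (-1.63 ± 0.47, adjusted p = 0.221). For treated livers 1 member, Elovl1, and 19.6% of all genes were called. Elovl1 differed by 1.78 ± 0.58 on the log2 scale (adjusted p = 0.0439), from -1.49 at 12-weeks to 0.29 at 34-weeks. This count was 0 without any one of WT mouse 1 or 3 of 12-weeks, WT mouse 1 or 2 of 34-weeks and treated mouse 9 or 11 of 34-weeks.

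Levels of different genes were compared by the TPM values, which are per transcript length. In WT livers of 12-weeks the order from the highest was Elovl3 (486 ± 7.95 TPM, SD, n = 3), Elovl5 (252 ± 87.0), Fads1 (133 ± 37.4), Fads2 (118 ± 48.0), Elovl2 (114 ± 30.1), Elovl1 (26.3 ± 5.80), Scd2 (0.725 ± 0.284) and Elovl7 (0.0327 ± 0.00866). The livers of Fads1, Fads2 and Elovl2 overlapped as neighbours in this order, and the other neighbours did not. In WT livers of 34-weeks Elovl5 (476 ± 238 TPM) stood above Elovl3 (251 ± 23.2 TPM), with overlap. In Lipa-/- livers Elovl3 was last of the 8 at both times (0.212 ± 0.10 and 0.358 ± 0.244 TPM), below Elovl7 (1.26 ± 0.515 and 2.78 ± 0.778 TPM), and Fads2 was first (141 ± 49.0 and 123 ± 7.30 TPM), overlapping Fads1 at 12-weeks. Treated livers had Elovl3 first (172 ± 86.8 and 380 ± 178 TPM), Elovl5 second with overlap (117 ± 67.5 and 355 ± 8.32 TPM), and Elovl7 last.

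**Figure D3:**
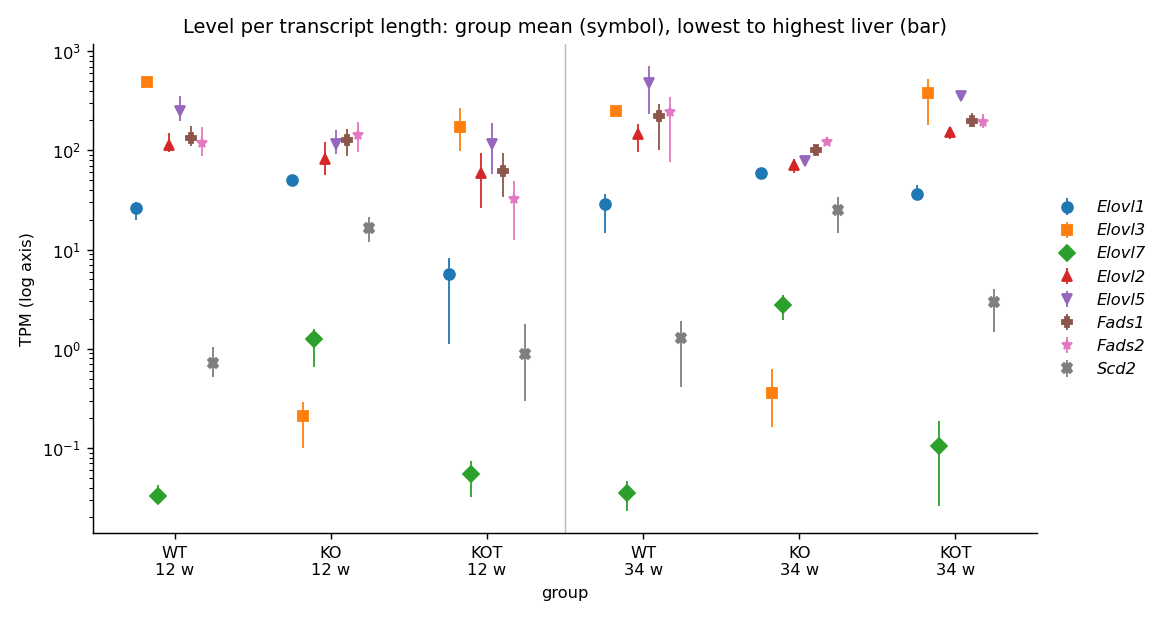
TPM of the members by group on a log axis, with the mean as a symbol and the range from the lowest to the highest of 3 livers as a bar. Elovl3 moves from the top of the order in WT livers of 12 weeks (486 TPM) to the bottom in KO livers (0.212 TPM).

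Ratios of TPM within a liver do not depend on the scaling between livers. With 3 livers against 3 0.1 is the smallest two-sided p of an exact permutation test, and 16 of 24 comparisons reached it (Benjamini-Hochberg adjusted 0.15). Elovl5 to Elovl2 was 2.19 ± 0.173 in WT and 1.46 ± 0.250 in Lipa-/- livers at 12-weeks (SD, n = 3, exact p = 0.1), and 3.09 ± 0.695 and 1.14 ± 0.264 at 34-weeks (exact p = 0.1). In treated livers it was 2.02 ± 0.192 and 2.36 ± 0.366, overlapping the WT livers at both times (exact p = 0.4 and 0.2). The ratio was lower in every Lipa-/- liver than in any WT liver of the same time.

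Fads2 to Fads1 was 0.825, 0.786 and 0.980 in WT livers of 12-weeks, 1.19, 1.09 and 1.02 in Lipa-/- livers and 0.366, 0.523 and 0.608 in treated livers, so that the 3 groups did not overlap (exact p = 0.1 for each pair). At 34-weeks the ratio was 0.766 to 1.16 in WT, 1.13 to 1.32 in Lipa-/- and 0.974 to 0.994 in treated livers. Scd2 to Scd1 was 42.9-fold higher in Lipa-/- than in WT livers at 12-weeks and 39.9-fold higher at 34-weeks (exact p = 0.1 each), while Scd1, the main delta-9 desaturase of adult liver, was the more abundant, with a ratio of 0.0180 ± 0.00356 and 0.0187 ± 0.00562 in Lipa-/- livers (SD, n = 3). In WT livers this ratio was 0.00042 ± 9.8e-05 and 0.00048 ± 0.00021. Elovl3 to Elovl1 was 19.2 ± 4.89 and 10.1 ± 4.61 in WT and 0.00427 ± 0.00211 and 0.00579 ± 0.00334 in Lipa-/- livers.

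**Figure D4:**
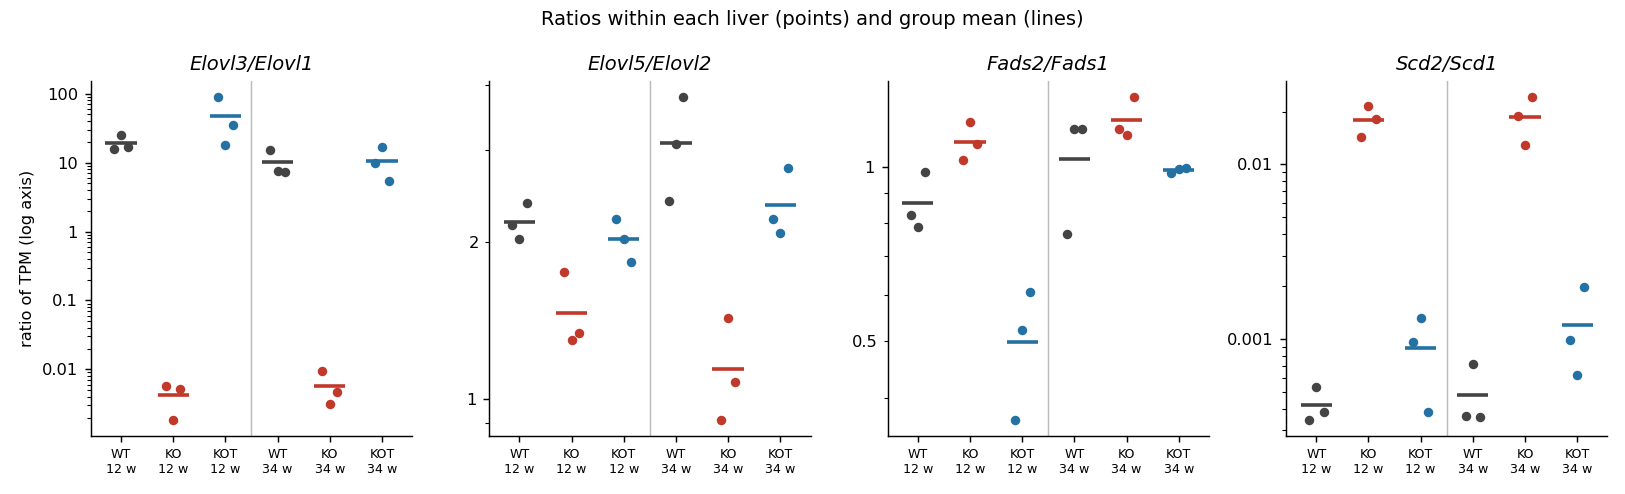
Ratios of TPM between members within each liver on log axes, and of Scd2 to its paralog Scd1; points are livers and lines the means of 3. In the KOT livers of 12 weeks Fads2 to Fads1 lies between 0.366 and 0.608, below the other groups.

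The deposited mean transcript length of a gene depends on which of its transcripts were read and on the fragment length of the library. For the 6 members with at least 27 reads in every liver, group means differed by at most 4.17% in any comparison within a time point. For these 6 the exact test reached 0.1, its lowest value, in 4 of 36 comparisons (adjusted p = 0.9).

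Of the other elongases and desaturases, Elovl6, Scd1, Fads3 and Fads6 were tested, while Elovl4, Scd3 and Scd4 had too few reads. Elovl6, which elongates palmitate to stearate, was lower in Lipa-/- livers (-1.55 at 12-weeks and -2.68 at 34-weeks, adjusted p = 0.00376 and 3.52e-05) and in treated livers of 12-weeks (-1.47). Scd1 was lower in Lipa-/- livers (-1.40 and -1.61), and Fads3 was higher (1.31 and 1.78). Fads6 was lower in Lipa-/- livers of 34-weeks (-1.02) and in treated livers of 12-weeks (-1.67). In Lipa-/- against WT livers the call of Scd1 was lost at 12-weeks with total counts (-0.95) and on log2(TPM + 0.1) (-0.89), and at 34-weeks on the latter (-0.84). Those of Elovl6 at 12-weeks on log2(TPM + 0.1) (-1.11) and of Fads6 at 34-weeks with total counts (-0.45) and on log2(TPM + 0.1) (-0.30) were lost too. In treated livers of 34-weeks 0 of these 4 were called against WT livers, and all 4 differed from untreated livers (3 higher, 1 lower), of which 2 higher calls were left with total counts and 1 on log2(TPM + 0.1).

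Of the enzymes that complete the elongation cycle, 6 of 7 were tested. Hacd4, a dehydratase of the family, was higher in Lipa-/- livers (4.75 and 3.98, adjusted p = 5.61e-07 and 1.45e-06) and in treated livers of 12-weeks (2.06, not called on log2(TPM + 0.1), 0.87). Hsd17b12, the first reductase, was lower in Lipa-/- livers of 34-weeks (-1.58), where Hacd1, Hacd2 and Hacd3 were at -0.58, -0.77 and -0.80 and not called. The call of Hsd17b12 was lost with total counts (-0.97) and on log2(TPM + 0.1) (-0.84). Tecr, the last reductase, was lower in treated livers of 12-weeks (-1.19), and Hacd2 was higher in treated than in untreated livers at that time (1.26), but at 0.37 with total counts and 0.36 on log2(TPM + 0.1), without a call. The median log2 fold change of the list in Lipa-/- livers was -0.31 at 12-weeks, which turned to 0.17 with total counts, and -0.78 at 34-weeks.

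Of 7 genes of malonyl-CoA and palmitate metabolism, 5 were lower in Lipa-/- livers at 12-weeks and 7 at 34-weeks. These were led by Me1, the malic enzyme that provides NADPH (-3.71 and -4.64), and Acacb, an acetyl-CoA carboxylase (-2.29 and -2.97). The 7 include Mlycd, which encodes malonyl-CoA decarboxylase, an enzyme that removes malonyl-CoA. In treated livers of 12-weeks 5 were lower, led by Fasn, the fatty acid synthase (-2.49), and at 34-weeks 0 were called. Of 6 tested acyl-CoA synthetases, which activate fatty acids, 4 were lower in Lipa-/- livers at each time, led by Acsl1 (-2.19 and -2.77). Of 5 electron carriers, Cyb5b was lower (-1.82 and -2.25), Cyb5a was lower at 34-weeks (-1.72, not called on log2(TPM + 0.1), -0.98) and Cyb5r1 was higher (1.19 and 1.49). With total counts, the genes of malonyl-CoA and palmitate metabolism kept 4 and 6 lower calls and the synthetases 2 and 4.

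Among 8 tested acyltransferases that place fatty acids into phospholipids, 3 were higher in Lipa-/- livers at each time, led by Lpcat2 (3.55 and 2.44), and Agpat3 was lower at 34-weeks (-1.29), a call lost with total counts (-0.70) and on log2(TPM + 0.1) (-0.39), under which 4 were higher and 0 lower at that time. Of 9 peroxisomal genes of chain shortening, 5 were lower and 1 higher at 12-weeks and 7 lower at 34-weeks, among them the transporter Abcd3 (-2.44 and -3.04). With total counts and on log2(TPM + 0.1) 3 were lower at 12-weeks and 6 at 34-weeks. Among 11 regulators, 5 and 6 were lower, led by Mlxipl, which encodes ChREBP (-1.83 and -2.35), and Insig2 (-1.66 and -2.42). With total counts the count of regulators was 2 and 3, with 1 higher at 34-weeks. Among 4 tested ceramide synthases, Cers5 was higher (2.51 and 2.58) and Cers6 was higher at 12-weeks (1.80). Cers2 was lower at 34-weeks (-1.23) with TMM factors but not with total counts (-0.61) or on log2(TPM + 0.1) (-0.66). Either of the latter left 0 lower and 3 higher at that time.

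All 10 male-biased liver genes were lower in Lipa-/- livers at 12-weeks and 8 at 34-weeks, where 1 was higher (Serpina1e, 1.58), and all 10 were higher in treated than in untreated livers at both times (8 with total counts and 7 on log2(TPM + 0.1) at 12-weeks). Elovl3 had the same direction in these comparisons. With total counts and on log2(TPM + 0.1), 7 male-biased genes were lower and 2 higher in Lipa-/- livers at 34-weeks. Of 6 tested female-biased genes, 3 were higher at 12-weeks, and 2 were higher and 2 lower at 34-weeks. In treated against WT livers at 12-weeks, 1 male-biased gene was higher and 0 lower (0 and 3 on log2(TPM + 0.1)). At 34-weeks 3 were higher and 0 lower (median log2 fold change 1.23), with 0.22% of all genes called. Of the female-biased genes, 1 was higher at 12-weeks (0 on log2(TPM + 0.1)). At 34-weeks 0 were higher and 2 lower (1 with total counts). All mice were male.

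**Figure D5:**
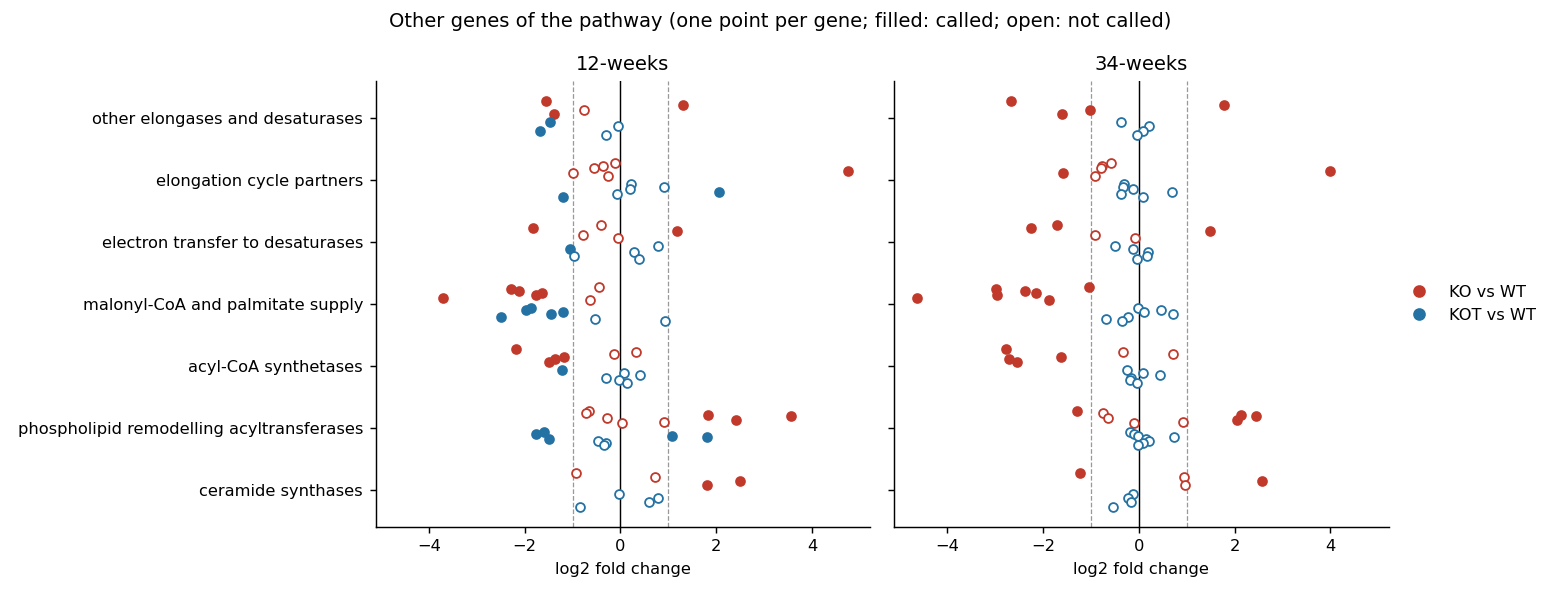
Log2 fold changes against WT livers for the tested genes of 7 lists of the pathway at 12-weeks (left) and 34-weeks (right), red for KO and blue for KOT; each point is a gene, filled where called, with dashed lines at 1 and -1. At 34-weeks the KOT points are all open. All 7 genes of the malonyl-CoA and palmitate list, which include the malonyl-CoA decarboxylase gene Mlycd, lie below -1 in KO livers.

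For each member, the genes with the most similar profile were taken as those with the smallest root mean square (RMS) difference of centred log2 CPM over the 18 livers. Elovl3 was nearest to Mup8, Mup11 and Mup18, which encode major urinary proteins (RMS differences of 1.24, 1.25 and 1.26, against an RMS of 5.00 for Elovl3 itself), and reads of the Mup genes are hard to divide between them. Elovl7 was nearest to Slc25a4, S100a11 and Pkm (0.48, 0.49 and 0.53 against 2.02), and Scd2 to Vsir, Gng2 and Dapp1 (0.47, 0.50 and 0.51 against 1.79). Elovl5 was nearest to Pank1, Rdh16 and Scp2 (0.28, 0.32 and 0.32 against 1.14), and Fads2 to Agpat3, Tmem184a and Cpt1a (0.25, 0.26 and 0.31 against 0.82). Slc38a4, an amino acid transporter, was among the nearest to both Elovl2 (0.23, with Mccc2 and Stard7, against 0.71) and Fads1 (0.24, with Pigr and Aldh2, against 0.64). Elovl1 was nearest to Atxn7l3, Scamp4 and Mta3 (0.21, 0.23 and 0.25 against 0.97).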

How the data were processed

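Liver RNA of 18 mice was analysed from the deposited table of estimated counts per gene, which the authors made from paired poly(A) reads against mouse transcripts of GRCm39 and summed to genes. The authors' TPM values and mean transcript lengths, deposited with it, were used for levels per length. The authors' own comparisons (log2 fold change, error, statistic and p-values, made with DESeq2 1.40.1 in R 4.3.0) were not used.

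Estimated counts were rounded to whole numbers (19.4% were not whole), genes with more than 100 reads in all were kept, and edgeR 4.0.16 (quasi-likelihood, TMM factors, limma 3.58.1, R 4.3.3) was fitted to all groups together, with Benjamini-Hochberg adjustment over all genes. Alternatives used DESeq2 1.42.0, other scalings and filters, limma on log2 TPM, the compared groups alone, and each liver left out. The fit was tested on simulated data. Ratios and lengths were compared by exact permutation. Named were all 8 members, every tested gene among the other elongases, desaturases and cycle enzymes, from each further list genes among the 2 called genes per direction with the largest change in a comparison and a mean of at least 1 CPM (given at both times), and the 3 genes most alike in pattern. Members and lists were chosen with earlier results of these data known. Upstream sequences of the other members are not reported here.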

Additional observations from a re-analysis of the deposited data

Results flagged for a closer look

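The difference between treated and WT livers changed between 12- and 34-weeks for Elovl1, by 1.78 ± 0.58 (SE) on the log2 scale (edgeR interaction term, adjusted p = 0.0439). It rested on single livers, since the call was lost without any one of 6 livers (WT mice 1 and 3 of 12-weeks, WT mice 1 and 2 and treated mice 9 and 11 of 34-weeks). It was kept without treated mouse 10 of 12-weeks, which held the lowest Elovl1 level. The time points had different study codes, so that time and code cannot be told apart.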

How the results depend on the processing

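Of 864 values of the members under the alternatives, 794 kept direction and side of the threshold, 33 lost the call, 15 gained it and 22 changed sign. The calls of Elovl3, Elovl7, Scd2 and Elovl5 in Lipa-/- against WT livers, and of the first 3 in treated against untreated livers, held under every alternative run. Those of Elovl7 are limited in that it passed the minimum of reads only through the Lipa-/- livers. Of the sign changes, those of Elovl5 in treated against untreated livers at 12-weeks concerned a called value (1.05). Fads1 in that comparison was 0.0043 by DESeq2, 0.021 when only the compared groups were fitted, -1.12 and -1.11 on both log2 TPM scales, where it was called lower, and -0.28 to 0.22 with 1 liver left out. Elovl2 in treated against WT livers at 34-weeks was 0.026 with upper quartile factors, 0.044 with total counts, 0.098 and 0.097 on both log2 TPM scales and -0.18 to 0.088 with 1 liver left out. Fads2 in Lipa-/- against WT livers at 12-weeks was 0.31 with total counts, 0.28 and 0.27 on log2(TPM + 0.1) and log2(TPM + 1), and -0.45 to 0.12 with 1 liver left out. In treated against untreated livers at 12-weeks, Elovl2 (0.55) was -0.26 with total counts and -0.60 and -0.59 on the TPM scales, and Elovl5 -0.12 on both. The count of members called in treated against WT livers at 12-weeks (2) was 1 with only the compared groups, 0 at an adjusted p under 0.01, 6 on both TPM scales and 0 to 3 with 1 liver left out. For treated livers between times (2) it was 5 with total counts, 7 on both TPM scales and 2 to 4 with 1 liver left out. For the interaction of treatment and time (1) it was 2 with total counts and on both TPM scales, 0 at an adjusted p under 0.01, and 0 to 2 with 1 liver left out. The cause of these changes was not tested. Groups of one time shared no mouse numbers. WT livers of both times shared numbers 1 to 3, and their deviations correlated at r = 0.0763, -0.24 and 0.46. Treated livers of both times shared numbers 11 and 12, and Lipa-/- livers number 5, whose deviations were not compared. Livers were taken when the mice were killed, so a number shared between times is not one mouse, and the numbers were not taken as pairs. With mouse number as a replicate block, 0 members were called between times in WT livers, as without it. Elovl3 in Lipa-/- livers and Elovl7 in WT and treated livers had at most 16 reads per liver, which limits the precision of their folds.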
